A study of Mus musculus with 16 samples.

Results

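Gene expression in the kidney cortex of exercised mice was compared with that of sedentary mice, with all lengths of exercise pooled into one side. The exercised side held 12 RNA sequencing libraries and the sedentary side 4, which are all 16 libraries of the series. The animals were wild-type male mice of the inbred C57BL/6J strain, and no group carried a transgene or a drug. Exercised mice ran on a motorised treadmill in sessions of 40 minutes at 70% of capacity, for 1 day (the 24 h group), 1 week or 2 weeks, with 4 libraries at each duration. Each duration was given the same weight, so that the exercised level is the mean of the 3 duration means. Of 16126 genes with enough counts to be tested, 7996 had a log2 fold change of the same sign at every duration: 4149 were higher than in sedentary cortex each time (25.7%) and 3847 lower (23.9%), 49.6% in all. The durations share the sedentary libraries, so a shared sign is partly built into the comparison. The sources used here do not give what "24 h" spans, the animals' age or how long after the last run tissue was taken, and the labels do not say that each library came from its own animal.

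The cortex holds the glomeruli, which filter plasma, and most of the proximal tubule, which takes back glucose, amino acids and salt, burns fatty acids and makes glucose. Further along lie the distal convoluted and connecting tubules, with the thiazide-sensitive sodium chloride cotransporter, and the collecting duct. In the collecting duct, principal cells carry the epithelial sodium channel and intercalated cells secrete acid or base. During running, blood flow is moved from the kidney to working muscle, and fatty acids and stress hormones rise in plasma. These functions set the gene groups described here, and in bulk cortex fewer cells of a type and less RNA per cell cannot be told apart.

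Library totals ranged from 39766260 to 66852397 counts. The labelled tissue was matched by markers of proximal tubule and podocytes, given in CPM (counts scaled to a common library size). The 17 proximal tubule carriers summed to 17580 to 20198 CPM in sedentary and 16118 to 22571 CPM in exercised libraries. The 10 podocyte genes summed to 249 to 311 CPM and 218 to 379 CPM, in the same order. The list named for inner medulla and urothelium varied most within groups, with a standard deviation of 1.11 in log2. Its urea transporter gene Slc14a2 was at 38.6 to 49.0 CPM in sedentary and 0.533 to 58.2 CPM in exercised libraries, most of them below the sedentary range. How much medulla each piece of tissue held was not tested. Markers of adrenal cortex summed to at most 3.94 CPM, of skeletal muscle to at most 2.56 CPM and of neutrophils to at most 4.59 CPM in any library. Markers of adipocytes summed to 32.4 to 47.3 CPM in sedentary and 18.2 to 57.6 CPM in exercised libraries, and the adipsin gene Cfd was at 13.9 CPM in the 1st library at 2 wk against at most 1.57 CPM in the others. The titles carry an unexplained letter that is one for every exercised and another for every sedentary library, and its meaning cannot be told apart from exercise. The 3rd library at 24 h stood above the others in chaperone genes, and its effect is given beside those results. It was also the highest library in other lists, as the median over each list's genes in log2 against the sedentary mean. These were the fibroblast (0.72), macrophage (0.69), B and plasma cell (0.84), tubular injury (0.76) and integrated stress response (0.55) lists. Leaving out the 3rd or the 4th sedentary library had the largest effect on counts of genes at an unadjusted p under 0.05, from 1286 in all to 778 and 771.

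No gene differed between exercised and sedentary cortex at an adjusted p under 0.05 by edgeR's quasi-likelihood test (0 of 16126, 0.0%), and the smallest adjusted p was 0.255. At an unadjusted p under 0.05 there were 632 genes higher (3.92%) and 654 lower (4.06%) on the exercised side, or 7.97% in all. Of these 1286, 1261 also had the same sign at every duration (7.82% of all genes tested), 623 higher (3.86%) and 638 lower (3.96%). Some passed the filter on low counts only through the side where they were high. Of the 632 higher genes, 67 had under 4 sedentary libraries at the filter's minimum, 39 of them none (1143 and 155 of all 16126). Of the 654 lower genes, 7 had under 4 exercised libraries there (9 of all 16126). The median log2 fold change of these 1261 genes was 0.34 in size, which their selection by p makes large by itself. Over all genes tested the median standard error was 0.118. In 40 genes (0.248%) the 12 exercised libraries and the 4 sedentary libraries did not overlap at all, 21 higher (0.13%) and 19 lower (0.118%). Of these 40, Gzma on the lower side and Pcdh8 and Gm10051 on the higher side passed the filter on low counts only through the side where they were high, which favours a lack of overlap. Other tools made calls where edgeR made none: DESeq2 called 26 genes, 13 in each direction, and limma's voom with sample quality weights 45, 23 higher and 22 lower, with 19 genes called by both. The genes named here were ranked by p, and none of them is described as changed.

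**Figure D1:**
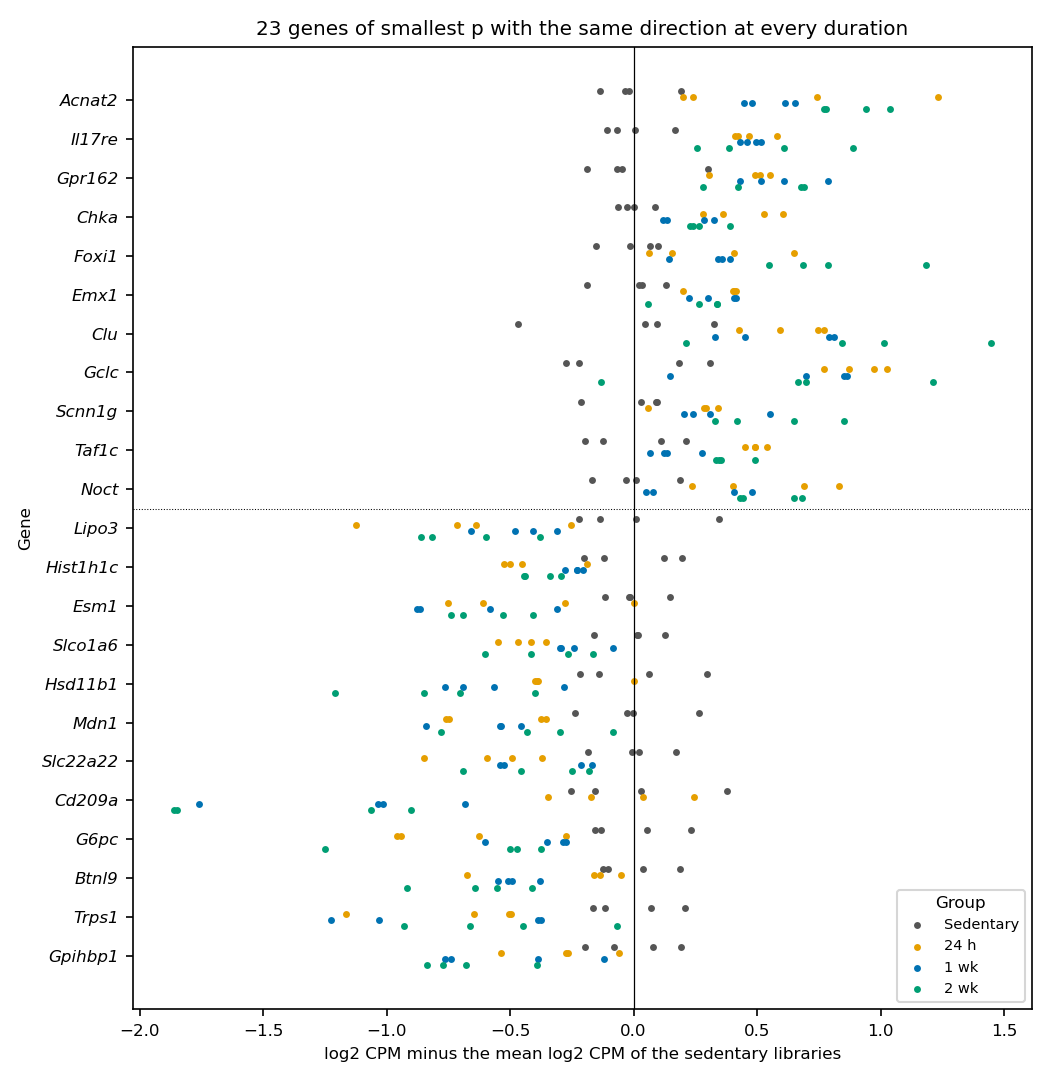
Genes of smallest p with the same direction at every duration that are described here, 23 in all, 11 higher (above the dotted line) and 12 lower on the exercised side. Each point is a library, on the x axis as log2 CPM minus the mean of the sedentary libraries (grey), so a reader sees that the exercised libraries of all 3 durations lie mostly on one side, with overlap in single libraries for most genes.

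Among the 12 genes of smallest p on the higher side, 3 were above every sedentary library in all 12 exercised libraries. Acnat2 (ENSMUSG00000060317, GRCm38 chromosome 4, 49379840 to 49408151, minus strand) codes for an acyltransferase that conjugates fatty acids to amino acids. Its sedentary libraries were at 45.6, 45.1, 42.1 and 52.8 CPM, and the exercised ones ranged from 53.1 through a median of 75.1 to 109 CPM. Exercised and sedentary libraries did not overlap, although the lowest exercised library lay close to the highest sedentary one. The log2 fold change was 0.70 ± 0.14 (SE), with 0.66 at 24 h, 0.55 at 1 wk and 0.88 at 2 wk, and edgeR's adjusted p was 0.255. Acnat2 has a close paralog, so its counts are uncertain to the extent that reads were shared between the copies. Il17re, a subunit of the interleukin 17C receptor, was at 7.93, 6.74, 7.11 and 6.57 CPM in sedentary and 8.45 to 13.1 CPM (median 9.74) in exercised libraries (0.49 ± 0.10, adjusted p = 0.255). Its difference was even across durations, at 0.47, 0.47 and 0.55 in log2. Chka, the choline kinase that starts phosphatidylcholine synthesis, went from 22.9 to 25.3 CPM in sedentary to 25.9 to 36.3 CPM (median 29.0) in exercised libraries, a log2 fold change of 0.32 ± 0.07 (adjusted p = 0.281).

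The remaining genes on the higher side overlapped between groups in 1 to 3 exercised libraries. Gclc, the catalytic subunit of the enzyme that limits glutathione synthesis, had the largest log2 fold change of the 12, 0.73 ± 0.18. Sedentary levels of Gclc were 204, 211, 305 and 280 CPM against 224 to 571 CPM with a median of 432 CPM in exercised cortex, and 10 of 12 exercised libraries lay above the highest sedentary one. Clu, the secreted chaperone clusterin, was at 327, 279, 270 and 189 CPM in sedentary and 303 to 713 CPM (median 443) in exercised libraries (0.71 ± 0.17). In both genes the sedentary libraries themselves were far apart, and the standard errors were above the median of all genes. Foxi1, the transcription factor of intercalated cells, and Scnn1g, a subunit of the epithelial sodium channel, are described with the collecting duct. Noct, a circadian phosphatase (0.46 ± 0.12), the orphan receptor Gpr162 (0.52 ± 0.11), the homeobox gene Emx1 (0.31 ± 0.07) and Taf1c, a subunit of a transcription factor of RNA polymerase I (0.33 ± 0.09), were on this side too. Their adjusted p by edgeR lay between 0.281 and 0.379.

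On the lower side, 2 of the 12 genes of smallest p were below every sedentary library in all 12 exercised libraries. G6pc (ENSMUSG00000078650, chromosome 11, 101367561 to 101377903, plus strand) codes for the catalytic subunit of glucose-6-phosphatase, the last enzyme of glucose production. It was at 553, 544, 712 and 628 CPM in sedentary libraries and at 255 to 501 CPM, with a median of 433 CPM, in exercised ones. The log2 fold change was −0.56 ± 0.13, with −0.68 at 24 h, −0.38 at 1 wk and −0.62 at 2 wk (adjusted p = 0.31). Lipo3, a member of a lipase family with near-identical copies on chromosome 19, was at 34.1, 36.1, 50.4 and 40.0 CPM against 18.2 to 33.3 CPM (median 25.9), a log2 fold change of −0.60 ± 0.12 (adjusted p = 0.268). Counts of Lipo3 are uncertain for that reason.

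Hsd11b1 makes active corticosterone from its inactive form inside cells. Its sedentary libraries were at 192, 202, 274 and 233 CPM, and exercised libraries at 96.3 to 223 CPM with a median of 160 CPM. The difference was −0.30 at 24 h, −0.58 at 1 wk and −0.77 at 2 wk in log2 (mean −0.55 ± 0.12, adjusted p = 0.281), and 11 of 12 exercised libraries lay below the lowest sedentary one. A test of the durations against each other did not pass for this gene (edgeR adjusted p = 0.56). Organic anion carriers of the tubule were also on this side, Slco1a6 (−0.35 ± 0.08, 233 ± 19.1 CPM in sedentary against 184 ± 19.4 CPM in exercised libraries, SD) and Slc22a22 (−0.44 ± 0.10). Slco1a6 lies in a cluster of similar genes, and its counts are uncertain in the same way.

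The other genes of smallest p on the lower side included 3 that endothelium expresses, Esm1, Gpihbp1 and Btnl9. Esm1, a proteoglycan released by endothelium, was at 26.9, 24.0, 23.9 and 22.4 CPM in sedentary and 13.2 to 24.3 CPM (median 16.1) in exercised cortex (−0.54 ± 0.12). Gpihbp1, which holds lipoprotein lipase on the capillary wall, was at 10.6 ± 1.25 CPM in sedentary and 7.63 ± 1.45 CPM in exercised libraries (−0.48 ± 0.12), and Btnl9, a butyrophilin-like gene of endothelium, at 7.47 to 9.28 CPM and 4.31 to 7.86 CPM (−0.45 ± 0.11). For each of these, 10 or 11 of the 12 exercised libraries lay below all sedentary libraries. Cd209a, a lectin receptor of dendritic cells, was low throughout, at 1.70 ± 0.34 CPM (SD, n = 4) in sedentary, 1.62 ± 0.29 at 24 h, 0.80 ± 0.23 at 1 wk and 0.66 ± 0.23 at 2 wk. Its 24 h libraries overlapped the sedentary ones. Its log2 fold change of −0.83 ± 0.20 was made up of −0.06, −1.09 and −1.35 at the 3 durations, which did not differ at the adjusted threshold (edgeR adjusted p = 0.215). The linker histone Hist1h1c (−0.35 ± 0.08), the ribosome assembly factor Mdn1 (−0.51 ± 0.11) and the transcriptional repressor Trps1 (−0.63 ± 0.16) were the other genes of the 12.

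**Figure D2:**
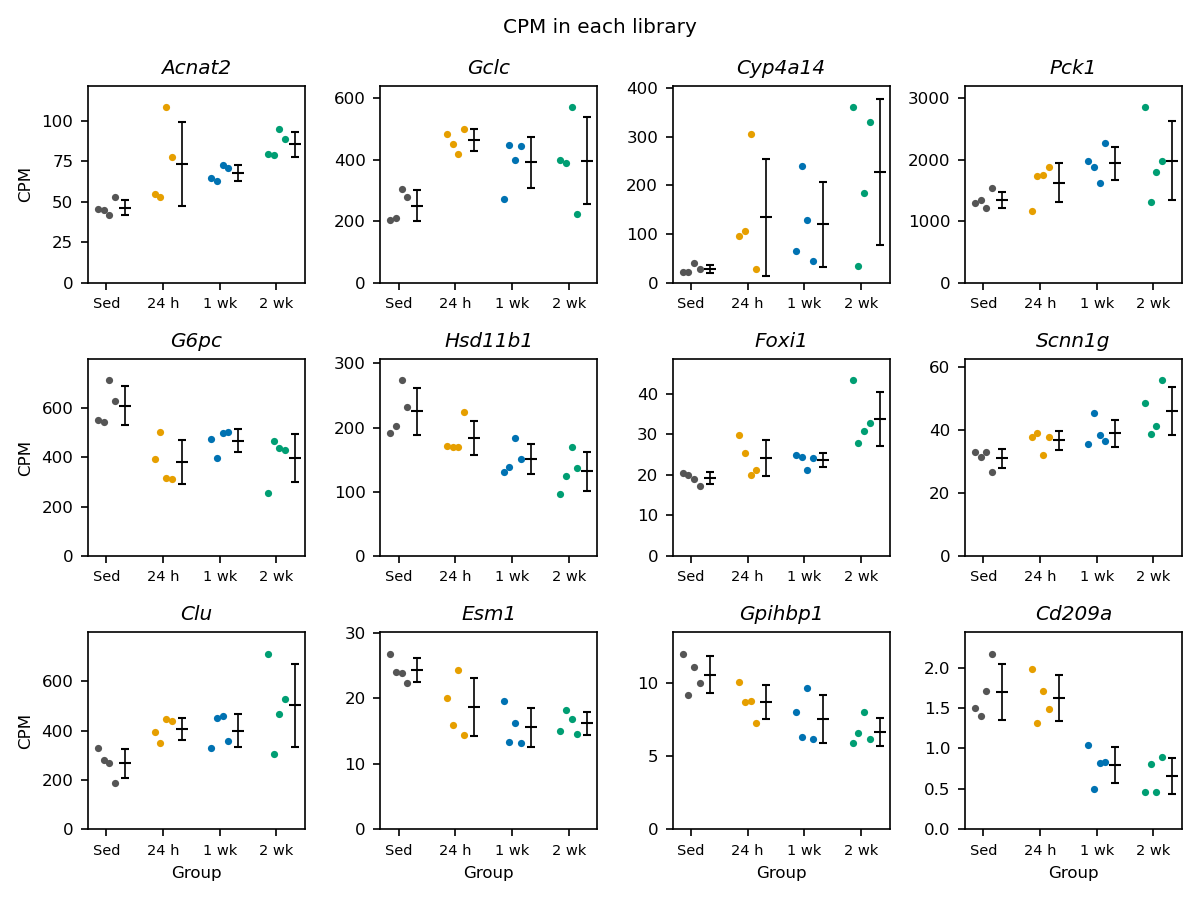
CPM of 12 genes in each library of the sedentary (Sed), 24 h, 1 wk and 2 wk groups, with the mean and SD (n = 4) beside the points; every y axis starts at 0. Acnat2 and G6pc show no overlap between sedentary and exercised libraries, Cyp4a14 ranges from 28.7 to 361 CPM among exercised libraries, and Cd209a is low at 1 wk and 2 wk but not at 24 h.

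Markers of the distal nephron were on the higher side together. All 12 genes of the distal convoluted and connecting tubule were positive, 9 of them at every duration (25.7% of all genes tested were), and their median log2 fold change was 0.25 (0.17 at 24 h, 0.28 at 1 wk and 0.41 at 2 wk) against 0.0017 over all genes tested, of which 50.6% were positive and 49.4% negative. None passed the adjusted threshold, and 7 had an unadjusted p under 0.05, all higher. Of all genes tested, 3.92% were higher and 4.06% lower at that p, and the counts given below for other lists are to be read beside these shares. The sodium chloride cotransporter Slc12a3 (chromosome 8, 94329201 to 94366214) was at 490, 392, 410 and 324 CPM in sedentary and 403 to 644 CPM (median 524) in exercised libraries. The groups overlapped, with 7 of 12 exercised libraries above the highest sedentary one (0.32 ± 0.11, adjusted p = 0.488). Trpv5, the calcium channel of this segment, was at 8.52 ± 1.74 CPM in sedentary and 12.1 ± 2.84 CPM in exercised libraries (0.49 ± 0.16), and Klhl3, which controls the breakdown of WNK kinases upstream of the cotransporter, at 31.6 ± 5.21 and 38.9 ± 5.84 CPM. The 4th sedentary library was the lowest of the 4 in each of these genes. Without it the list's median was 0.18 and 1 of its 12 genes had an unadjusted p under 0.05, and without the 3rd sedentary library 3 had. Leaving out the 1st sedentary library gave a median of 0.39.

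In the collecting duct the subunits of the epithelial sodium channel were alike in direction. Scnn1g was at 26.7 to 33 CPM in sedentary and 32.2 to 55.9 CPM (median 38.6) in exercised libraries, 11 of which lay above the highest sedentary one. Its log2 fold change was 0.38 ± 0.10, with 0.24, 0.33 and 0.57 at the 3 durations in order (adjusted p = 0.339). Scnn1a, the alpha subunit, differed by 0.30 ± 0.10 and Scnn1b, the beta subunit, by 0.28 ± 0.12; Scnn1b was singled out after its value was seen, to complete the channel. Hsd11b2, which inactivates corticosterone and so keeps the mineralocorticoid receptor selective for aldosterone, was at 153 ± 15.5 CPM in sedentary and 193 ± 44.6 CPM in exercised libraries (0.32 ± 0.12). Over the 11 genes of principal cells 8 were positive, 7 of them at every duration, and 3 negative, the median was 0.28, and 5 had an unadjusted p under 0.05, all higher, or 3 without the 4th sedentary library. The water channels were not among them.

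Foxi1 (ENSMUSG00000047861, chromosome 11, 34204338 to 34208089, minus strand) was at 17.2 to 20.5 CPM (mean 19.2 ± 1.46) in sedentary libraries. At 24 h it reached 24.1 ± 4.51 CPM, at 1 wk 23.7 ± 1.77 CPM and at 2 wk 33.8 ± 6.73 CPM (SD, n = 4). All but 1 exercised library, one at 24 h with 19.9 CPM, lay above the highest sedentary value (0.49 ± 0.11, adjusted p = 0.291). Intercalated cell genes as a whole went the same way: all 11, Foxi1 included, were positive, 7 of them at every duration, with a median of 0.20, and 4 had an unadjusted p under 0.05, or 1 without the 4th and 2 without the 3rd sedentary library. They included the ammonia transporters Rhbg (0.36 ± 0.12) and Rhcg (0.24 ± 0.09) and the proton pump subunit Atp6v0d2 (0.25 ± 0.11). Upstream of these segments, the thick ascending limb list was near 0 (median −0.01, 4 of 10 positive), with a sign that changed under 7 of 27 alternatives. In the proximal tubule, 12 of 17 carriers were negative (median −0.10). An unadjusted p under 0.05 was found for 4, all lower (4.06% of all genes tested were). These were Slco1a1 (−0.55 ± 0.23), the lactate carrier Slc5a12 (−0.45 ± 0.21), the cystine carrier subunit Slc7a9 (−0.20 ± 0.09) and the organic anion carrier Slc22a30 (−0.21 ± 0.10). That count was 0 without the 3rd sedentary library, 1 without the 4th sedentary, the 3rd or 4th at 24 h or the 4th at 2 wk, and 2 without the 2nd sedentary, the 1st, 3rd or 4th at 1 wk or the 1st at 2 wk. The apical sodium-proton exchanger Slc9a3 was at 85.9 ± 4.85 CPM in sedentary and 85.3 ± 17.5 CPM in exercised cortex (−0.01 ± 0.12), and its sign changed under 7 of 27 alternatives.

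**Figure D3:**
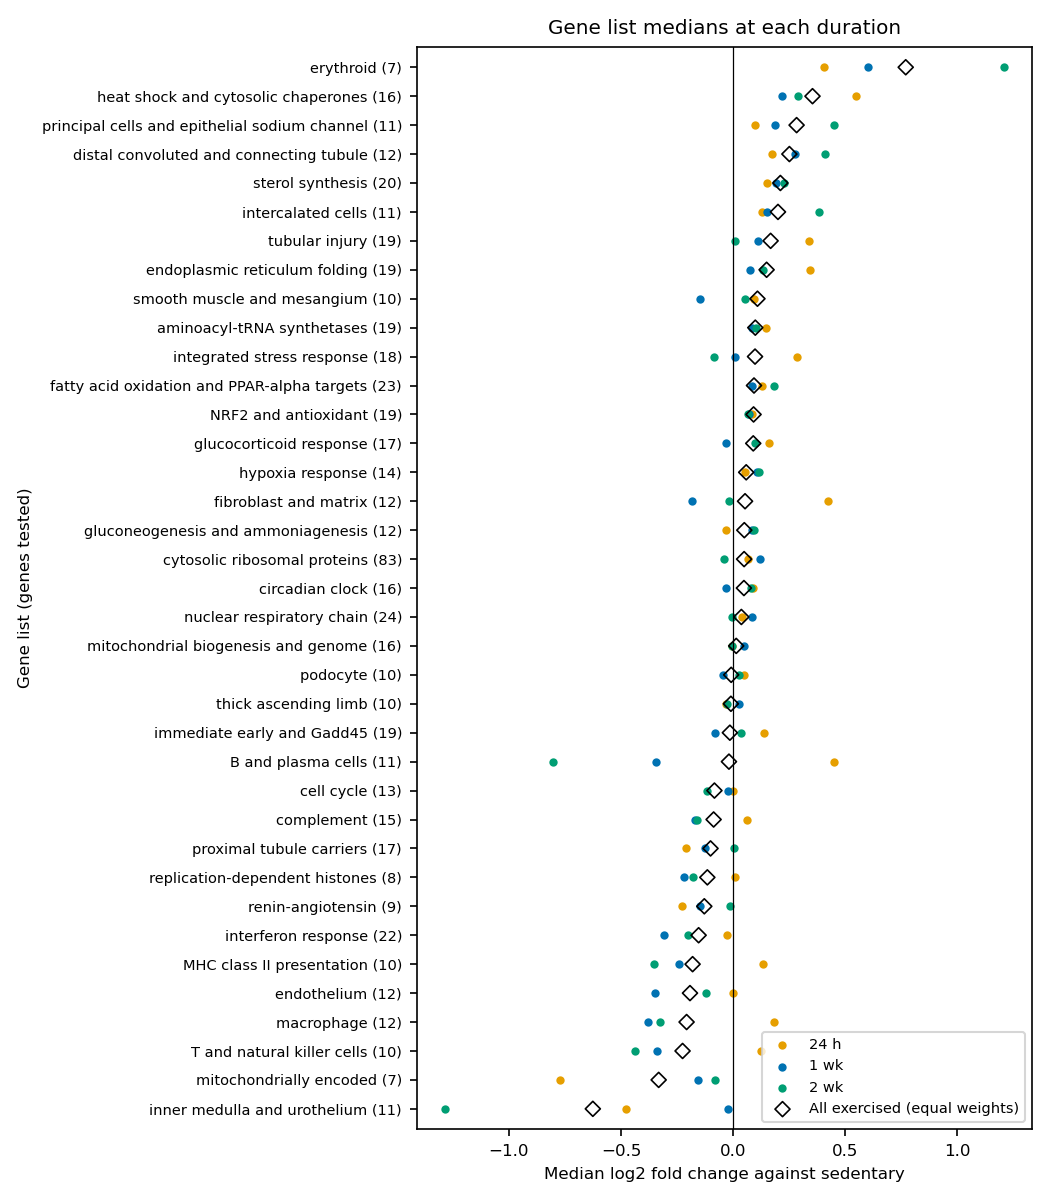
Median log2 fold change against sedentary of each gene list with at least 5 tested genes, at each duration (coloured points) and over all exercised libraries (open diamonds); the number of genes tested is in brackets and the vertical line is the median of all genes. Distal nephron, chaperone, sterol synthesis and erythroid lists lie to the right at every duration, and mitochondrially encoded genes to the left at every duration. The macrophage, T cell and MHC class II lists lie to the left at 1 wk and 2 wk but not at 24 h, where single libraries were of both signs.

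Genes of fatty acid oxidation, most of them targets of the fatty acid receptor PPAR-alpha, were on the higher side in 20 of 23 cases. Of the 23, 10 were higher at every duration (25.7% of all genes tested were). Their median was 0.09 (0.13, 0.09 and 0.18 at the 3 durations), and 8 had an unadjusted p under 0.05, all higher, with 6 to 8 when any 1 library was left out. Cyp4a14, a fatty acid omega-hydroxylase, had the largest difference, at 22.0, 22.4, 39.3 and 27.7 CPM in sedentary libraries. Exercised libraries spread from 28.7 through a median of 117 to 361 CPM, 10 of 12 above the highest sedentary one, and low and high libraries occurred at every duration. The fitted fold was 5.52 (log2 2.46 ± 0.72, adjusted p = 0.465). Its neighbour Cyp4a10 was at 354 ± 44.2 CPM against 489 ± 98.8 CPM (0.46 ± 0.15); members of this cluster resemble each other, so reads shared between them make both values uncertain. Ucp2, an uncoupling protein of the inner mitochondrial membrane, was at 101, 95.9, 109 and 86.0 CPM in sedentary and 91.6 to 234 CPM (median 155) in exercised cortex, 11 of 12 above all sedentary libraries, with an even difference of 0.65, 0.58 and 0.70. Angptl4, the secreted inhibitor of lipoprotein lipase, differed by 0.56 ± 0.17. The carnitine transferase Cpt1a, which admits fatty acids to mitochondria, was at −0.11 ± 0.13 and is named for its role, after its value was seen.

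The enzymes of glucose production did not move as a group. Against the lower G6pc stood Pck1, the enzyme that commits oxaloacetate to glucose and is linked to ammonia production in the tubule. Pck1 was at 1289, 1351, 1213 and 1533 CPM in sedentary and 1161 to 2856 CPM (median 1834) in exercised libraries, 10 of 12 above the highest sedentary one (0.45 ± 0.15, adjusted p = 0.481). Gldc, the glycine cleavage decarboxylase that frees ammonia, was at 70.4, 90.9, 67.1 and 54.3 CPM against 82.5 to 187 CPM with a median of 103 CPM (0.65 ± 0.18), and the transaminase Got1 at 98.8 ± 9.42 and 117 ± 9.48 CPM (0.24 ± 0.08). Over the 12 genes 8 were positive and 4 negative, with a median of 0.05. Fbp1, the bisphosphatase of the pathway, was at −0.07 ± 0.06 and is named here for its role, after its value was seen.

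Sterol synthesis genes, which the factor SREBP2 controls, were higher in 17 of 20 cases, 13 of them at every duration, with a median of 0.21 and nearly the same medians at each duration (0.15, 0.19 and 0.23). At an unadjusted p under 0.05 there were 9 higher and 1 lower, the desaturase gene Sc5d (−0.17 ± 0.08), and 6 to 10 higher when 1 library was left out. Lss, which closes the sterol ring, was at 24.6, 27.2, 20.7 and 23.6 CPM in sedentary and 25.6 to 35.6 CPM (median 29.9) in exercised cortex (0.31 ± 0.09, adjusted p = 0.408). Mvd, of the mevalonate pathway, was at 80.5 to 86.7 CPM against 86.2 to 115 CPM with a median of 102 CPM, with 11 of 12 exercised libraries above all sedentary ones. Fdft1, squalene synthase, differed by 0.35 ± 0.12. Sc5d was singled out after its value was seen.

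The median of the chaperone genes was above 0 at each duration. All 16 heat shock and cytosolic chaperone genes were positive over the exercised side, 12 of them at every duration, with a median of 0.35 (0.55, 0.22 and 0.29 at 24 h, 1 wk and 2 wk) and 5 at an unadjusted p under 0.05. Hsp90ab1, a constitutive form of HSP90, was at 1404, 1486, 1304 and 1391 CPM in sedentary and 1407 to 2572 CPM (median 1716) in exercised libraries (0.37 ± 0.13, adjusted p = 0.482). Its partners Stip1 (0.44 ± 0.16) and Hsph1 (0.50 ± 0.19) and the small heat shock protein gene Cryab (0.42 ± 0.18) were similar in size. As the median over the list's genes, sedentary libraries lay between −0.06 and 0.06 in log2 of the sedentary mean. The 3rd library at 24 h was at 1.08. The other exercised libraries lay between −0.13 and 0.54, with the 2nd and 4th at 2 wk below 0. Without the 3rd library at 24 h the list's median log2 fold change was 0.30. The count at an unadjusted p under 0.05 was 3 without the 3rd sedentary library or the 3rd at 2 wk, 8 without the 2nd at 24 h and 10 without the 1st at 24 h. The lists of chaperones and folding enzymes were compiled with results of these data known.

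In the endoplasmic reticulum, 17 of 19 folding genes were positive, 14 of them at every duration, with a median of 0.15 (0.34, 0.08 and 0.13 at the 3 durations), and 6 had an unadjusted p under 0.05, all higher. Syvn1, the ubiquitin ligase that clears misfolded proteins, was at 49.6, 47.0, 41.9 and 48.5 CPM in sedentary and 50.3 to 87.2 CPM (median 57.2) in exercised cortex, so that the groups did not overlap (0.35 ± 0.10, adjusted p = 0.416). The chaperone Hyou1 was at 123, 123, 125 and 144 CPM against 132 to 314 CPM with a median of 178 CPM (0.53 ± 0.15). Creld2 (0.72 ± 0.23) and the secreted factor Manf (0.55 ± 0.21) had their highest values in the same 24 h library, and differed by 0.58 and 0.43 without it. The list's median was then 0.11.

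In the response to amino acid shortage, Asns and Atf5 differed among durations. Asns, which makes asparagine, was at 5.91, 5.65, 4.79 and 3.90 CPM in sedentary cortex, 10.5 ± 0.93 CPM at 24 h, 6.10 ± 1.59 CPM at 1 wk and 4.22 ± 0.63 CPM at 2 wk (SD, n = 4). Its log2 fold changes of 1.05, 0.26 and −0.27 had different signs, and the exercised groups differed among themselves (edgeR adjusted p = 0.0202). Atf5, a transcription factor of the same response, was at 19.7 ± 1.58 CPM in sedentary and 28.9 ± 1.4, 21.5 ± 1.55 and 18.7 ± 1.82 CPM in the exercised groups in order (adjusted p = 0.0352 among durations). These 2 genes, 0.0124% of those tested, were all that edgeR called for a difference among durations (7.75% had an unadjusted p under 0.05), and taken as one exercised side they had log2 fold changes of 0.35 ± 0.14 and 0.20 ± 0.08. No gene was called when any 1 of 6 libraries was left out, the 1st, 3rd or 4th at 24 h and the 2nd, 3rd or 4th at 2 wk, whereas 13 were called without the 2nd at 24 h, 6 without the 1st at 1 wk and 1 without the 2nd at 1 wk or the 2nd or 4th sedentary library. Over 18 genes of the integrated stress response the median was 0.10, with 0.28, 0.01 and −0.09 at the 3 durations, and 0.02 without the 3rd library at 24 h. Among 19 aminoacyl-tRNA synthetases 16 were positive, 15 of them at every duration, with a median of 0.10 (0.06 without the 3rd sedentary library) and 3 at an unadjusted p under 0.05, Yars (0.23 ± 0.08), Mars (0.14 ± 0.06) and Gars (0.14 ± 0.06), or 1 without the 3rd sedentary library, 5 without the 2nd at 1 wk and 6 without the 4th at 2 wk.

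**Figure D4:**
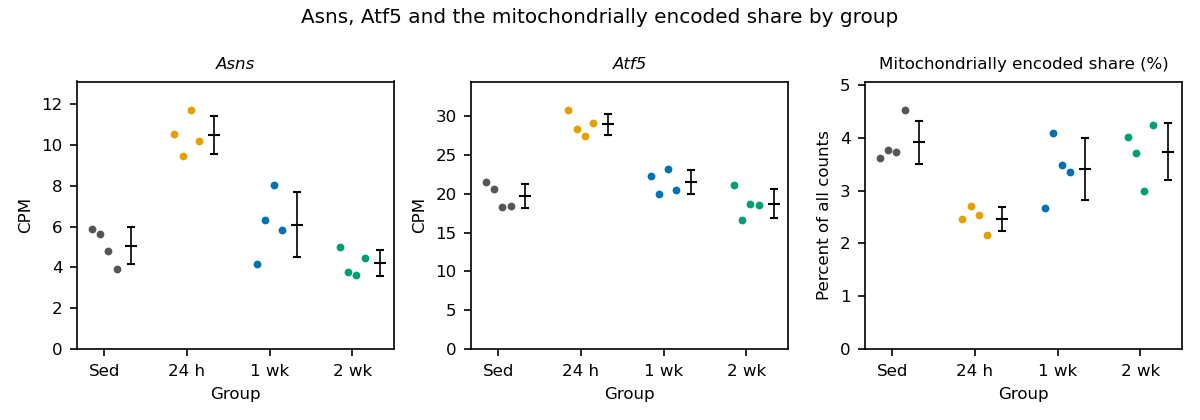
Asns and Atf5 (CPM) and the percent of all counts from mitochondrially encoded genes in each library of the sedentary (Sed), 24 h, 1 wk and 2 wk groups, with mean and SD (n = 4); every y axis starts at 0. The 24 h libraries stand apart from the sedentary ones in all 3 panels, while the 2 wk libraries overlap them.

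Transcripts of the mitochondrial genome took 3.61, 3.77, 3.74 and 4.52% of all counts in the sedentary libraries and 2.16 to 4.23%, with a median of 3.18%, in the exercised ones. The means were 3.91 ± 0.41% (SD, n = 4) and 3.20 ± 0.71% (SD, n = 12), a difference of −0.711 percentage points (two-sided exact permutation test over 1820 arrangements, p = 0.0813). The groups overlapped, and the exercised groups were at 2.47 ± 0.23% at 24 h, 3.40 ± 0.59% at 1 wk and 3.73 ± 0.54% at 2 wk. Without the 24 h group the difference was −0.344 points (exact permutation p = 0.299), without the 2 wk group −0.978 points (exact permutation p = 0.0364), and without the 4th library at 2 wk −0.805 points (exact permutation p = 0.0454). Of 13 protein-coding mitochondrial genes, 7 passed the filter on low counts, and all 7 were negative, 5 of them at every duration, with a median log2 fold change of −0.33 (−0.77, −0.16 and −0.08 at the 3 durations). The filter removed the other 6, 2 of which had no count in any library. Why these 6 had so few counts was not tested. The share of counts given above holds only reads that were counted on a gene, and may be too low. Of the 7, 4 had an unadjusted p under 0.05: mt-Nd5 (−0.48 ± 0.15), mt-Cytb (−0.37 ± 0.12), mt-Co1 (−0.33 ± 0.10) and mt-Nd2 (−0.33 ± 0.12). All 7 had one without the 2nd library at 1 wk. For mt-Co1 the sedentary libraries were at 10315, 10874, 9812 and 12651 CPM and the exercised ones at 6037 to 11917 CPM (median 8708). The 24 nuclear genes of the respiratory chain had a median of 0.04 (0.02 to 0.06 when a library was left out) with none at an unadjusted p under 0.05, and 16 genes of mitochondrial biogenesis one of 0.01, with a sign that changed under 3 of 27 alternatives. The exception in that list was Pprc1, a coactivator related to PGC-1 alpha, at 8.99, 7.32, 8.33 and 8.47 CPM against 7.99 to 15.1 CPM (median 11.4), a log2 fold change of 0.44 ± 0.12 (0.60, 0.12 and 0.59).

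Endothelial markers were on the lower side in 11 of 12 cases, 6 of them at every duration, with a median of −0.19 (0.00, −0.35 and −0.12 at the 3 durations), the exception being Vwf, von Willebrand factor (0.27 ± 0.26), named after its value was seen. Emcn, the endothelial sialomucin endomucin, was at 54.4, 47.8, 58.9 and 54.8 CPM in sedentary and 31.6 to 61.5 CPM (median 42.7) in exercised libraries (−0.33 ± 0.11, adjusted p = 0.482). Kdr, the main receptor of vascular endothelial growth factor, was at 37.6 ± 3.62 CPM and 29.7 ± 6.02 CPM (−0.35 ± 0.12). Both had an unadjusted p under 0.05, as had 6 of the 12 without the 4th library at 2 wk, 5 without the 3rd at 24 h and 4 without the 1st at 1 wk. Smooth muscle and mesangial genes (median 0.11 over 10) and fibroblast genes (median 0.05 over 12) were of both signs and turned sign under some alternatives.

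Immune cell markers did not go one way. In T and natural killer cells all 10 tested genes were negative, but 3 at every duration, with a median of −0.23 (0.12, −0.34 and −0.44 at the 3 durations; −0.37 without the 1st library at 24 h). Their levels were low: the 13 list genes summed to 6.76 to 7.83 CPM in sedentary and 4.56 to 12.02 CPM in exercised libraries, the highest sum being in a 24 h library. Gzma, a granzyme of cytotoxic cells, was below all sedentary libraries in all 12 exercised ones, at 0.401, 0.245, 0.295 and 0.384 CPM against 0.022 to 0.218 CPM (−1.13 ± 0.32, adjusted p = 0.414). These were 11 to 23 counts against 1 to 11, and only 1 of the 12 exercised libraries reached the filter's minimum, so the gene was tested because of its sedentary level and its lack of overlap is in part set by the filter. Cd3e, which codes for part of the T cell receptor, differed by −0.56 ± 0.26, from 0.471 ± 0.0394 CPM in sedentary libraries to 0.464 ± 0.211 at 24 h, 0.193 ± 0.0619 at 1 wk and 0.350 ± 0.0852 at 2 wk. Macrophage genes were negative in 10 of 12 cases, 2 of them at every duration (median −0.21, or −0.13 without the 3rd sedentary library). Adgre1, which codes for the macrophage marker F4/80, was at 3.07 ± 0.423 and 3.03 ± 1.33 CPM (−0.06 ± 0.21), and its sign changed under 4 of 27 alternatives. All 10 genes of antigen presentation by MHC class II were negative, 2 of them at every duration, with a median of −0.18 (−0.27 without the 2nd sedentary library). Of all genes tested, 23.9% were lower at every duration. The counts at every duration in the T and natural killer cell, macrophage and MHC class II lists were near that share. Of 22 interferon response genes 18 were negative, 10 of them at every duration, with a median of −0.15 (−0.23 without the 3rd library at 1 wk) and 4 at an unadjusted p under 0.05, or 0 without the 3rd or the 4th sedentary library and 2 without the 1st or 2nd at 1 wk, the 2nd at 24 h or the 1st at 2 wk. The medians at 24 h were 0.18 for macrophages and 0.13 for MHC class II, and at 1 wk and 2 wk both were below 0. The 24 h libraries were of both signs. As the median over each list's genes against the sedentary mean, they were at 0.29, −0.35, 0.69 and −0.01 in log2 for macrophages. For MHC class II they were at 0.33, −0.28, 0.24 and −0.07. The T and natural killer cell values were 0.85, −0.33, −0.23 and −0.16, with only the 1st above 0. Genes of B and plasma cells were positive in 4 of 11 cases, with a median of −0.02 (0.45, −0.35 and −0.80 at the 3 durations) that changed sign under 10 of 27 alternatives. Of 8 neutrophil genes 3 were tested, and these 3 were positive at every duration with a median of 0.43 and none at an unadjusted p under 0.05.

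Transcripts of red blood cells and their precursors had the largest median of the 37 lists with at least 5 genes tested, 0.77 over 7 genes, 6 of them higher at every duration, with 0.40, 0.60 and 1.21 at the 3 durations. Alas2, the first enzyme of heme synthesis in these cells, was at 7.65, 9.94, 6.75 and 6.25 CPM in sedentary and 6.17 to 32.7 CPM (median 12.3) in exercised libraries, with 9 of 12 above the highest sedentary one (0.83 ± 0.25, adjusted p = 0.465). The globin genes Hba-a1 (0.77 ± 0.28) and Hbb-bt (0.77 ± 0.32) were alike, but each has a near-identical copy, so the values for single globin genes are uncertain. Summed over the list, levels ranged from 373 to 623 CPM in sedentary and 374 to 1702 CPM in exercised cortex. Of the 7 genes, 5 had an unadjusted p under 0.05, or 1 without the 4th and 3 without the 1st sedentary library. How much blood was left in each piece of tissue was not tested.

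Injury genes of the tubule were of both signs, with 11 of 19 positive, a median of 0.17 (0.34, 0.11 and 0.01 at the 3 durations; 0.09 without the 3rd sedentary library) and 4 at an unadjusted p under 0.05, all higher. These were Clu, the keratins Krt7 (0.38 ± 0.11) and Krt18 (0.43 ± 0.18), and the fibrinogen chain Fga (0.41 ± 0.15). The classical marker Havcr1 was at 1.83, 3.09, 3.16 and 5.67 CPM in sedentary and 1.42 to 25.9 CPM (median 3.87) in exercised libraries, a difference of 0.73 ± 0.55 (edgeR adjusted p = 0.792). At 24 h it was 1.63 ± 0.65 (edgeR unadjusted p = 0.025), with the 4th library there at 25.9 CPM, and without that library the difference over all durations was 0.42. Lcn2 differed by 0.42 ± 0.34. Glutathione and antioxidant genes were positive in 14 of 19 cases (median 0.09). Of these, Gclc and the thioredoxin reductase Txnrd1 (0.17 ± 0.07) had an unadjusted p under 0.05, against 3.92% of all genes tested that were higher at that p. Without the 1st sedentary library, 1 had one.

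Genes that set blood pressure through the kidney were of both signs. The renin gene Ren1 was at 74.9, 100.4, 59.5 and 63.9 CPM in sedentary and 50.3 to 155 CPM (median 86.1) in exercised libraries, with full overlap (0.26 ± 0.25, adjusted p = 0.844). Of 9 tested genes of the renin-angiotensin system 7 were negative, 5 of them at every duration (23.9% of all genes tested were), with a median of −0.13. Agtr1a, the main angiotensin II receptor, was at 40.0, 45.1, 35.6 and 42.1 CPM against 28.4 to 42.9 CPM with a median of 34.2 CPM (−0.22 ± 0.10). Mas1, the receptor of angiotensin 1-7, was low, at 1.90 ± 0.545 and 1.29 ± 0.308 CPM (−0.56 ± 0.21). Without the 1st or the 2nd sedentary library neither had an unadjusted p under 0.05. Among glucocorticoid response genes (11 of 17 positive, with a median of 0.09 that was −0.03 at 1 wk, −0.0044 without the 1st sedentary library and 0.16 without the 4th) the immunophilin Fkbp5 was at 63.7, 72.6, 64.7 and 61.3 CPM in sedentary and 60.4 to 148 CPM (median 85.3) in exercised cortex, a log2 fold change of 0.50 ± 0.19 that was close to even across durations (0.47, 0.45 and 0.58).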

How the data were processed

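Polyadenylated RNA from kidney cortex was sequenced from stranded libraries, per the labels' protocols. The authors deposited raw read counts per gene, made with HTSeq 0.10.0 after a quality check with FastQC 0.10.1 on the mouse build mm10 (GRCm38), per the submitters' processing notes. The sources used here do not give the aligner, which annotation was used or whether counting used strand, so antisense and overlapping genes are uncertain. The table has 24 columns of counts; 16 matched a sample's labels and 8 were not used. Gene names and coordinates are from GENCODE M21 (GRCm38), which holds 52133 of 55414 identifiers (94.1%) and 99.39% of the counts.

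Groups were taken from the labels. Counts were filtered with edgeR 4.0.16's filterByExpr, scaled by TMM and fitted with its robust quasi-likelihood model over 4 group means (R 4.3.3), and the mean of the 3 exercised groups was set against the sedentary group with Benjamini-Hochberg adjustment over 16126 genes at 0.05. The exercised groups were also tested against each other. CPM values use TMM-scaled library sizes. Log2 fold changes are those of the fitted model at edgeR's default setting. Their standard errors were derived from the test, as the size of the log2 fold change divided by the square root of its F statistic. A prior count of 2 was used only for the log2 CPM behind list values per library and the comparison of same-numbered libraries. The mitochondrially encoded share was tested by an exact permutation test (Python 3.11.15, SciPy 1.17.1). The scripts were tested on simulated data. Each library held 39766260 counts or more, but genes of low level had few, such as Gzma with 1 to 11 counts in exercised libraries. Whether depth or the number of libraries limits precision was not tested. The p-values measure the spread between libraries, which may be technical if animals were shared.

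Named genes are, per direction, the 12 of smallest p with the same sign at every duration, a mean log2 CPM of at least 0 and neither a clone name nor a pseudogene (the rule ranked by size of change past the threshold, which no gene passed), up to 4 of smallest p per gene list, and a fixed set (Asns, Atf5, mt-Cytb, mt-Co1, Ren1, Slc12a3, Slc9a3, Havcr1, Lcn2, Adgre1, Cd3e, Xist, Ddx3y); a few of them are not reported here. The comparison, the 41 gene lists (37 with at least 5 genes tested) and these rules were chosen with earlier results of these data known. Alternatives were DESeq2 1.42.0, limma 3.58.1's voom with sample quality weights, other scalings and filters, a replicate block, 1 mean for all exercised libraries, and leaving out each duration or library. No within-group pair of libraries agreed within sampling noise.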

Additional observations from a re-analysis of the deposited data

Results flagged for a closer look

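Over 104 named genes and the mitochondrial share, with 4 libraries in each of 4 groups, 24 of 420 group tests had 1 library far from the other 3 by Dixon's criterion. Chance flags about 1 in 20 such groups, so this number is near what chance gives.

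Several single libraries belong to genes on which results rest. In the 3rd library at 24 h, Creld2 was at 191 CPM against 69.2 to 87.2 in the others of its group, Slco1a1 at 99.3 CPM against 193 to 204, Scnn1a at 96.9 CPM against 113 to 115 and Cpt1a at 269 CPM against 364 to 369. In the 4th at 24 h, Hsd11b1 was at 223 CPM against 169 to 171, Emx1 at 55.7 CPM against 64.1 to 64.7 and the injury marker Havcr1 at 25.9 CPM against 3.42 to 6.97. Slc7a9 was at 117 CPM in the 1st at 24 h, against 103.7 to 104.0.

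At 1 wk, the 3rd library had 10.7 CPM of Havcr1 (others 2.15 to 3.30), 146 CPM of H2-Ab1 (97.1 to 104), 20.9 CPM of Atp6v0d2 (24.8 to 25.1), and 2.17 CPM of the urothelial gene Upk2 (0.144 to 0.222) with 2.30 CPM of the basal keratin Krt5 (0.242 to 0.333). The 4th at 1 wk had 135 CPM of Slc9a3 (73.8 to 82.7) and 67.1 CPM of Syvn1 (50.3 to 51.7), and the 1st 91.8 CPM of Gars (84.8 to 85.3). At 2 wk, Taf1c was at 8.99 CPM in the 1st library (8.05 to 8.17), and the 2nd had 0.726 CPM of Mmp13 (0.388 to 0.427).

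Among sedentary libraries, the 3rd had 299 CPM of Slco1a1 (196 to 213), 56.3 CPM of Sc5d (49.0 to 50.0) and 14.6 CPM of the collagen gene Col1a1 (18.8 to 19.1). The 4th had 144 CPM of Hyou1 (123 to 125) and 1.92 CPM of Mmp13 (1.51 to 1.52), and the 1st 93.1 CPM of Slc9a3 (83.0 to 84.2). Asns and Atf5 differed among the exercised durations at edgeR adjusted p of 0.0202 and 0.0352, with the highest levels at 24 h.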

How the results depend on the processing

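Under 27 alternatives the count of genes at an adjusted p under 0.05 for exercised against sedentary cortex was 0 by edgeR except without the 24 h group, 2 (Acnat2 higher, Mmp13 lower), and 0 to 1 when a library was left out (Mmp13 without the 1st at 24 h). DESeq2 called 26 and voom 45, and all had the same direction at every duration; 1286 genes had an unadjusted p under 0.05 by edgeR, 1388 by DESeq2 and 2342 by voom. For a difference among durations edgeR called 2, DESeq2 74, voom 3 and edgeR without a filter 3, with 0 to 13 when a library was left out. These next counts were chosen after seeing the data: genes of the same direction with an unadjusted p under 0.05 numbered 1970 with no filter on low counts (669 higher and 1301 lower), 2237 by voom and 755 to 1470 when a library was left out; genes with no overlap numbered 139, 156 and 165 without the 24 h, 1 wk and 2 wk group and 46 to 149 without a library, where fewer libraries make no overlap easier. The mitochondrial share differed by −0.978 points without the 2 wk group and by −0.810 to −0.508 without a library. The cause of these shifts was otherwise not tested.

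Directions of the named genes held except in values near 0. Slc9a3 was at 0.059 without the 24 h group and −0.092 to 0.027 when a library was left out. Adgre1 was at 0.069 and 0.053 without the 1 wk and 2 wk group and −0.15 to 0.0036 without a library. Ddx3y, on the Y chromosome, was at 0.0057 by voom, 0.0055 without the 1 wk group and −0.095 to 0.14 without a library, and Col1a1 at −0.032 without the 24 h group. For 27 named genes 1 or more alternatives passed the threshold that edgeR did not.

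Same-numbered libraries of different groups share only a number. Their deviations correlated at −0.239 to 0.375 over 24 pairs (median 0.053, 8 over 0.1), and 5 of 16 libraries correlated best with their own number. With the replicate number as a block, 0 genes passed the adjusted threshold, 1426 had the same direction and an unadjusted p under 0.05, 2 differed among durations, and the mitochondrial share gave an exact permutation p of 0.121 for pairing within numbers.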

Other observations

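Ribosomal protein pseudogenes were higher on the exercised side more than the genes themselves. The gene of smallest p of all tested was one of them, Rpl28-ps1 (GRCm38 chromosome 1, 128038569 to 128038982), at 1.41, 1.67, 1.60 and 1.05 CPM in sedentary and 1.90 to 3.21 CPM (median 2.42) in exercised libraries, with a log2 fold change of 0.79 ± 0.14 (edgeR unadjusted p = 2.9e-05, adjusted p = 0.255). It was left out of the named genes as a pseudogene. Of 38 tested pseudogenes with a ribosomal protein symbol, a group formed after seeing the data, 31 were positive with a median of 0.35. An unadjusted p under 0.05 was found for 12 on the higher side and 1 on the lower. Genes of low level can pass the filter through exercised libraries alone, which favours the higher side. Of all genes tested, 1143 had under 4 sedentary libraries at the filter's minimum and 9 had under 4 exercised ones. How many of the 38 did was not counted. The 83 cytosolic ribosomal protein genes had a median of 0.05 (0.02 to 0.09 when a library was left out). Reads of these families can be counted on either copy, and the share of such reads in each library was not tested.

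Some genes of low level had no overlap between groups and fell under the level set for named genes, so they were picked after their values were seen. Mmp13, collagenase 3, was at 1.52, 1.51, 1.52 and 1.92 CPM in sedentary and 0.347 to 1.49 CPM (median 0.551) in exercised cortex, a log2 fold change of −1.38 ± 0.27 (edgeR adjusted p = 0.255). Nos2, the inducible nitric oxide synthase, was at 0.889, 0.712, 0.970 and 0.917 CPM against 0.409 to 0.613 CPM (−0.77 ± 0.16), nearly even across durations. Trdn, the triadin gene of the calcium release complex of muscle, was at 1.29, 1.33, 1.62 and 1.98 CPM against 0.097 to 1.13 CPM (−1.42 ± 0.33). The skeletal muscle list as a whole summed to 1.88 to 2.55 CPM in sedentary and 1.48 to 2.56 CPM in exercised libraries.

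The list named for inner medulla and urothelium varied more between libraries than any other list, with a standard deviation within groups of 1.11 in log2. It also holds Aqp1 and Fxyd2, which are not particular to these tissues, and it summed to 5113 to 5328 CPM in sedentary libraries. The urea transporter gene Slc14a2 was at 40.6, 44.6, 38.6 and 49.0 CPM in sedentary libraries and at 0.533 to 58.2 CPM (median 29.7) in exercised ones, with 10 of 12 below the lowest sedentary library (−0.63 ± 0.56). Over the list 9 of 11 genes were negative with a median of −0.63 (−0.35 without the 4th sedentary library). None had an unadjusted p under 0.05, but 3 had one on the lower side without the 3rd library at 1 wk and 1 without the 3rd at 24 h or the 3rd at 2 wk. How much medulla each piece of tissue held was not tested.

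Hypoxia response genes were positive in 12 of 14 cases with a median of 0.06 (0.09 without the 2nd library at 24 h). The vasodilator peptide gene Adm, adrenomedullin, was at 4.25, 5.58, 3.90 and 4.42 CPM in sedentary and 4.96 to 9.60 CPM (median 5.90) in exercised cortex (0.45 ± 0.14), and P4ha1, a prolyl hydroxylase of collagen, differed by 0.38 ± 0.15. At an unadjusted p under 0.05 there were 3, or 1 without the 3rd sedentary library. Cell cycle genes were negative in 10 of 13 cases with none at an unadjusted p under 0.05.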
